A study of Mus musculus with 6 samples.

Results

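The CDK inhibitors and the retinoblastoma family were followed as 10 genes, taken by symbol from the 54532 genes of the expression table: Cdkn1a, Cdkn1b and Cdkn1c of the CIP/KIP family, Cdkn2a, Cdkn2b, Cdkn2c and Cdkn2d of the INK4 family, and the pocket protein genes Rb1, Rbl1 and Rbl2. RNA-seq covered 6 libraries of mouse primary lung fibroblasts by label, 3 titled NC and 3 titled calumenin KD. The sample descriptions name the same libraries WT and KO, the series text speaks of both knockout and knockdown, NC is not spelled out, and neither the reagent nor the clonality of the cells is given. The question was how calumenin, a calcium-binding protein of the secretory pathway, bears on signalling in senescence and fibrosis. No label gives strain, sex, age, culture time or passage, and nothing says that the 3 libraries of a group came from separate cultures or animals, so p-values measure the spread between these libraries, which may be technical.

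A cell leaves the division cycle when its cyclin-dependent kinases are held inactive. INK4 proteins bind CDK4 and CDK6 and keep D-type cyclins away from them, while CIP/KIP proteins bind assembled cyclin-CDK complexes, above all those of CDK2. Pocket proteins that escape phosphorylation by these kinases bind E2F factors and repress the genes of DNA synthesis and mitosis. In senescent fibroblasts Cdkn1a, a target of p53, and Cdkn2a, which encodes both p16INK4a and p19ARF, are the inhibitors usually measured as markers of the arrest. Much of the control of these proteins lies in phosphorylation and degradation, which RNA levels do not show.

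Depth was 15907164 to 18312888 reads per library, as recovered from the deposited FPKM values (fragments per kilobase of gene length, scaled to library depth). Calu was at 220 to 227 FPKM in the NC libraries and at 12.6 to 14.6 FPKM in the KD libraries, lower in KD as the labels state. KD1 stood apart from KD2 and KD3: chi-square per degree of freedom between read counts was 17.5 and 29.1 for KD1 against KD2 and KD3, but 4.47 for KD2 against KD3 and 2.31 to 3.19 among NC pairs. Mitochondrial genes took 2.56% of the reads of KD1 and 1.60% to 1.97% in the other 5 libraries. Of 13 fibroblast markers 9 averaged at least 1 FPKM, Vim, Col1a2 and Fn1 among them, with a summed level of 1586 to 1608 FPKM in NC and 1812 to 1848 FPKM in KD, but Lum had 0 reads. Of these 9 markers 3 rose (Col1a1, Fn1 and Pdgfra) and 3 fell (Col3a1, Pdgfrb and Ddr2) by limma, with a median log2 difference of 0.02. Of 11 lung mesenchyme markers only Mfap5 averaged at least 1 FPKM, and Tcf21, Inmt and Wnt2 had 0 reads in all 6 libraries. Summed epithelial markers stayed at 0.238 to 1.05 FPKM and summed endothelial markers at 0.166 to 0.259 FPKM over the 6 libraries. The 8 leukocyte markers summed to 4.76 to 5.60 FPKM in NC and 3.19 to 4.98 FPKM in KD. Of these 8, 2 averaged at least 1 FPKM and had no call. Adgre1 was at 0 in all 6 libraries and Ptprc at 0 in NC3, KD1 and KD3. The part of these markers in the results was not tested, and in bulk RNA fewer cells of a type and less RNA per cell cannot be told apart.

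Of the 10 genes, 7 averaged at least 1 FPKM and were tested. Both INK4 genes that were expressed, Cdkn2c and Cdkn2d, rose in KD, and so did the pocket protein gene Rbl2. The 2 inhibitors that respond to p53 or to growth arrest signals, Cdkn1a and Cdkn1b, had no call, nor did Rbl1. Rb1 was lower in each KD library than in any NC library but missed the threshold. By limma on log2(FPKM + 1) with Benjamini-Hochberg adjustment over 12299 genes, 3 of the 7 were higher and 0 lower. Of all tested genes 24.5% had a call, 10.9% higher and 13.6% lower. At an unadjusted p under 0.05, 3 were higher and 1, Rb1, lower. The share of all tested genes at that threshold was not counted, and it is at least the 24.5% with a call. Voom on recovered reads also called 3 higher and 1 lower, and 27.3% of all tested genes. KD and NC values did not overlap for 4 of the 7, against 44.2% of all tested genes. The median difference of the 7 was 0.10 on the log2 scale, that of all tested genes 0.01. Without KD1, 3 were higher and 2 lower, without NC2 or KD2 only 1 was higher, and without NC1 or NC3 there were 2 higher. Over all tested genes the fit without KD1 called 2571 higher and 2658 lower, and the fit without NC2 588 and 898. The fit without KD2 called 591 and 989, that without NC1 627 and 914, and that without NC3 650 and 972.

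**Figure D1:**
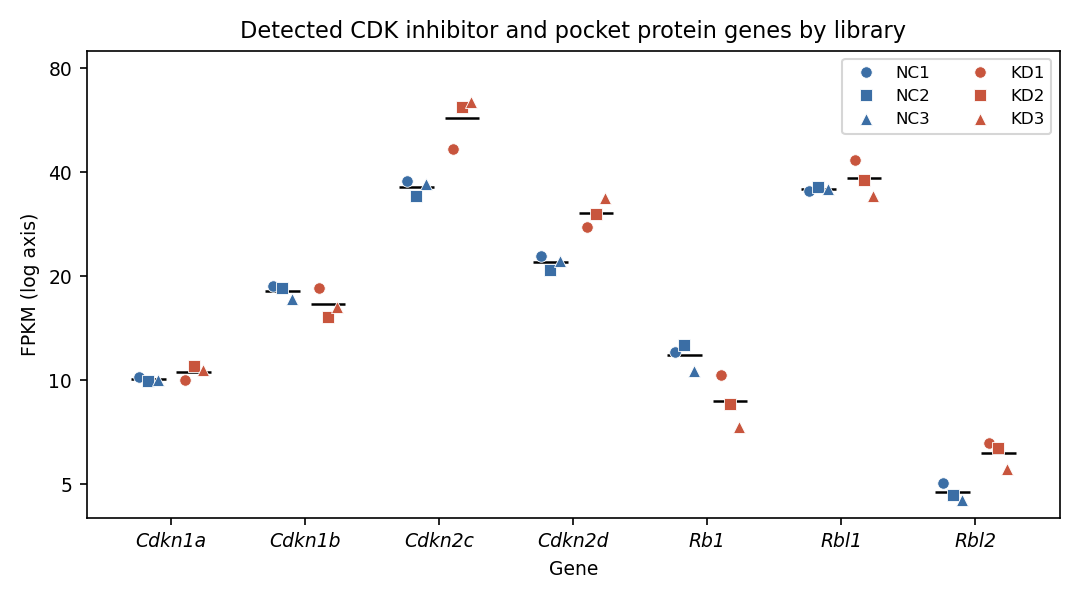
FPKM (log axis) of the 7 detected genes in each library, with NC libraries in blue, KD libraries in red, marker shapes for the library number and black bars for group means. Cdkn2c, Cdkn2d and Rbl2 have all KD points above all NC points, Rb1 has all of them below, and the groups overlap for the other 3 genes.

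The INK4 gene Cdkn2c encodes p18INK4c and lies on the minus strand of chromosome 4 at 109660876 to 109667189 (ENSMUSG00000028551, mm10). Cdkn2d encodes p19INK4d and lies on the minus strand of chromosome 9 at 21288410 to 21291407 (ENSMUSG00000096472). Rbl2, which encodes p130, is at 91070057 to 91123844 of chromosome 8, plus strand (ENSMUSG00000031666). Because these 3 genes carry the calls, the 250 bases before a start of each are shown, from RefSeq on GRCm38.p6, with capitals marking the GC box GGGCGG on either strand, the core of binding sites of SP1 and KLF factors. RefSeq gives Cdkn2c a further start downstream, at the end of a window with 0 GC boxes, and gene-level FPKM does not tell the starts apart.
Cdkn2c, chr4:109666757-109667006, minus strand: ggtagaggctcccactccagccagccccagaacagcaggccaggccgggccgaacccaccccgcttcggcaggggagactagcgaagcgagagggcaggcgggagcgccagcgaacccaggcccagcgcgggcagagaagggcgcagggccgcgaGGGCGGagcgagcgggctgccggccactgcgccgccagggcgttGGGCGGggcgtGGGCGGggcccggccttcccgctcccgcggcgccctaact
Cdkn2d, chr9:21291210-21291459, minus strand: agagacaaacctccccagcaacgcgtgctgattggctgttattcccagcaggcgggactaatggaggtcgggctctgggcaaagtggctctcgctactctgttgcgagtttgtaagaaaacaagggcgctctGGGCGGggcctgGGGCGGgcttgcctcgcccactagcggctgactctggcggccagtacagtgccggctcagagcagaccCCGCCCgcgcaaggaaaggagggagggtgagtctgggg
Rbl2, chr8:91069807-91070056, plus strand: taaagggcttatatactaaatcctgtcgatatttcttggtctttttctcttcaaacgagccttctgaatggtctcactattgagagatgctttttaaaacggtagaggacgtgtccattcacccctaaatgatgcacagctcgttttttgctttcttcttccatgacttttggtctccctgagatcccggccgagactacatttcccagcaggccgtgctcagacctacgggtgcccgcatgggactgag
The Cdkn2c and Cdkn2d windows each held 3 GC boxes and the Rbl2 window 0, where 32.7% of 32851 such windows held at least 1. Members without a call had GC boxes too. Cdkn1a and Cdkn2a each had 2 in 1 of their 2 windows and 0 in the other. Cdkn1b and Rbl1 had 1 each and Cdkn2b 0. The E2F site forms TTTCCCGC, TTTGGCGC, TTTCGCGC and TTTGCCGC, searched on both strands, were in none of these 3 windows and in 1.86% of all windows. Windows were found for 8 of the 10 genes, 11 in all, and an E2F form occurred in 1 of the 2 Cdkn2a windows and in that of Rbl1. CCAAT, the box bound by NF-Y, was found once in the Cdkn2d window and 2 times in that of Cdkn1b, and in 33.8% of all windows. A match is a run of letters, not a bound site.

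Cdkn2c was the member with the highest level and the largest difference. NC1, NC2 and NC3 stood at 37.8, 34.1 and 36.9 FPKM, and KD1, KD2 and KD3 at 46.7, 61.7 and 63.8 FPKM. Every KD library was above every NC library, and KD1 lay between the NC libraries and the other KD libraries. The mean went from 36.3 ± 1.90 to 57.4 ± 9.29 FPKM (SD, n = 3 each), a ratio of 1.58, on 4659 reads in NC and 7965 in KD. Limma gave a log2 difference of 0.64 (SE 0.12, 95% interval 0.35 to 0.93, adjusted p = 0.012), and voom gave 0.65 (adjusted p = 0.00359). Without KD1 the difference was 0.77 (limma adjusted p = 0.000366). The call ended without NC2 (adjusted p = 0.0542) and without KD2 (adjusted p = 0.0507), with differences of 0.59 and 0.58.

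Cdkn2d moved the same way by a smaller amount. Its level in NC1, NC2 and NC3 was 23.0, 20.9 and 22.1 FPKM, and in KD1, KD2 and KD3 27.8, 30.2 and 33.7 FPKM. KD1 was again the lowest of the KD libraries and still above all NC libraries. The mean rose from 22.0 ± 1.04 to 30.6 ± 2.95 FPKM (SD, n = 3 each), a ratio of 1.39, with a limma log2 difference of 0.45 (SE 0.08, 95% interval 0.26 to 0.65, adjusted p = 0.00944). This call held in all 21 alternatives run, with differences of 0.36 to 0.54 and adjusted p of 0.00231 to 0.0482. Over the 6 libraries Cdkn2c and Cdkn2d had a Pearson correlation of 0.98 on the log2(FPKM + 1) scale, a description over libraries that share the group difference.

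Cdkn2a and Cdkn2b, the INK4 genes next to each other on chromosome 4, had 0 reads in all 6 libraries. Cdkn2a lies at 89274471 to 89294653 and Cdkn2b, which encodes p15INK4b, at 89306299 to 89311039, both on the minus strand. A gene of their length with 3 reads would have had 0.138 to 0.162 FPKM for Cdkn2a and 0.117 to 0.136 FPKM for Cdkn2b, so only levels below these limits are compatible with the counts, counting error alone considered. The table is per gene, so p16INK4a and p19ARF cannot be separated, and both were at 0. No fold can be given for either gene.

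The absence of reads extended past the INK4 genes. The 2 nearest annotated genes on one side, the long noncoding RNA gene Gm12606 and the pseudogene Tgif2-ps1, also had 0 reads in all 6 libraries, as did the small nucleolar RNA gene Gm26490 beyond them. On the other side Gm12609 had 67 reads in NC and 62 in KD, and Gm12610 had 584 and 719 reads, or 21.0 ± 2.28 and 23.7 ± 3.30 FPKM (SD, n = 3 each). Mtap, the methylthioadenosine phosphorylase gene that borders the 5 genes at 0, was named after its values were seen. It had 399 reads in NC and 485 in KD, 2.59 ± 0.22 and 2.90 ± 0.17 FPKM. The pseudogene Gm12607, inside the span of Mtap, had 1 read in NC and 5 in KD. Between the end of Mtap at 89181081 and the start of Gm12609 at 89381957, a stretch of 200.9 kb, no annotated gene had a read in any library. The stretch was bounded by the nearest genes with reads, so that absence follows from how it was set. Among all 54532 genes listed 48.1% had 0 reads, and among the 22046 protein-coding ones 24.6%. Whether these genes are silent or missing from the genome of these cells cannot be told from RNA and was not tested.

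**Figure D2:**
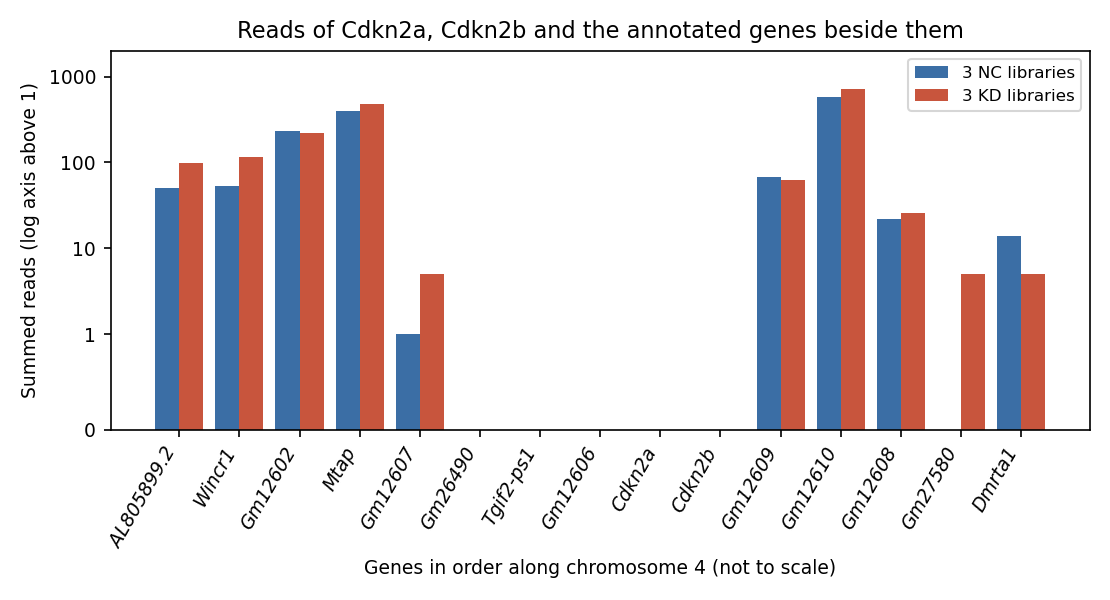
Reads summed over the 3 NC libraries (blue) and the 3 KD libraries (red) for annotated genes in their order along chromosome 4, on an axis that is logarithmic above 1. The 5 genes from Gm26490 to Cdkn2b have 0 reads. Directly beside them in this order are Gm12607, with 1 read in NC and 5 in KD, and Gm12609, with 67 and 62. Mtap and Gm12610, the next on either side, have 399 to 719 in each group.

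Among the CIP/KIP genes, Cdkn1a encodes p21, the inhibitor induced by p53, and is at 29090976 to 29100727 of chromosome 17, plus strand (ENSMUSG00000023067). The 3 NC libraries lay at 10.2, 9.94 and 10.1 FPKM, and KD1, KD2 and KD3 at 10.01, 11.01 and 10.7 FPKM. The groups overlapped, and the means of 10.1 ± 0.13 and 10.6 ± 0.51 FPKM (SD, n = 3 each) differed by 0.06 on the log2 scale (SE 0.06, limma adjusted p = 0.459). The 95% interval ran from -0.07 to 0.20, which is 0.95 to 1.15 times the NC value on the scale of FPKM + 1. Differences in either direction within that interval are compatible with these values.

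Cdkn1b encodes p27, which accumulates in quiescent cells, and is at 134920401 to 134925513 of chromosome 6, plus strand (ENSMUSG00000003031). Its values were 18.8 FPKM in NC1, 18.5 in NC2, 17.2 in NC3, 18.5 in KD1, 15.3 in KD2 and 16.3 in KD3. KD1 lay among the NC libraries and KD2 and KD3 below them. The log2 difference of -0.12 (SE 0.08, 95% interval -0.32 to 0.07, limma adjusted p = 0.31) did not pass, but without KD1 it was -0.19 and passed (adjusted p = 0.0364). Cdkn1c, the imprinted gene of p57 on chromosome 7 at 143458339 to 143461050, had 1 read in KD2 and 0 in the other 5 libraries. An exact Poisson 95% interval for that single read is 0.0253 to 5.57 reads, and 3 reads would be 0.0795 to 0.0928 FPKM.

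Of the pocket protein genes, Rb1 encodes the retinoblastoma protein and lies on the minus strand of chromosome 14 at 73183673 to 73325822 (ENSMUSG00000022105). NC1, NC2 and NC3 had 12.0, 12.7 and 10.7 FPKM of it, and KD1, KD2 and KD3 had 10.3, 8.55 and 7.32 FPKM. The groups did not overlap, but NC3 and KD1 were close to each other. Its means were 11.8 ± 1.03 and 8.74 ± 1.52 FPKM for NC and KD (SD, n = 3 each), a ratio of 0.74. The log2 difference was -0.40 (SE 0.12, 95% interval -0.70 to -0.11), with a limma adjusted p = 0.0553 that misses the threshold. It passed with voom (-0.44, adjusted p = 0.0297), without KD1 (-0.52, adjusted p = 0.00769), with protein-coding genes only (adjusted p = 0.036), with a filter of 5 FPKM (adjusted p = 0.0478) and with array weights (adjusted p = 0.03). Over all 21 alternatives the adjusted p was 0.00769 to 0.234.

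Rbl1, which encodes p107 and is on chromosome 2 at 157145893 to 157204534 on the minus strand (ENSMUSG00000027641), was the most abundant pocket protein RNA. It had 35.2, 36.4 and 35.8 FPKM in NC1, NC2 and NC3, and 43.4, 38.1 and 34.2 FPKM in KD1, KD2 and KD3. The 3 NC libraries lay inside the range of the KD libraries. The log2 difference of 0.10 (SE 0.09, 95% interval -0.12 to 0.31, limma adjusted p = 0.467) did not pass, and without KD1 it was 0.01 (adjusted p = 0.902). With a trend for GC content and gene length removed from each library it was 0.18 and passed (adjusted p = 0.0165).

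Rbl2 was the least abundant of the pocket protein RNAs and the one that rose. NC1, NC2 and NC3 showed 5.04, 4.67 and 4.50 FPKM, and KD1, KD2 and KD3 6.59, 6.35 and 5.54 FPKM. All KD values were above all NC values, with KD1 the highest this time. The mean went from 4.74 ± 0.28 to 6.16 ± 0.55 FPKM (SD, n = 3 each), a ratio of 1.30, on 1712 and 2424 reads. Limma gave 0.32 (SE 0.08, 95% interval 0.12 to 0.51, adjusted p = 0.0312) and voom 0.38 (adjusted p = 0.0168). The call ended without NC1 (adjusted p = 0.067), NC2 (0.108), NC3 (0.112) or KD2 (0.113), with array weights (0.102) and with no filter (0.0727).

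Rbl2 shares 693 of its 7558 exonic bases, in GENCODE M21, with Aktip on the opposite strand. It also shares 892 with Gm45464, on the opposite strand too and at 0 to 0.166 FPKM over the libraries. Aktip, a gene for a protein of vesicle transport and telomere maintenance, rose from 2.67 ± 0.27 to 4.23 ± 0.32 FPKM (SD, n = 3 each), a log2 difference of 0.51 (SE 0.09, limma adjusted p = 0.00882). The strand setting of the authors' counting is not given in the sources used here, so reads of the shared bases cannot be assigned. The part of these reads in the Rbl2 difference was not tested. Rb1 shares 408 exonic bases with Lpar6, a receptor gene inside it, and 488 with Rcbtb2, both on the opposite strand. Lpar6 had 1.21 and 1.33 FPKM in NC and KD (limma adjusted p = 0.742), and Rcbtb2 was at 0.168 to 0.431 FPKM. AC167363.2 overlaps Cdkn1a by 273 exonic bases and was at 0.180 to 1.27 FPKM. The antisense gene Gm44732, which overlaps Cdkn1c, had 0 reads.

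Differences between KD and NC followed the chromosome a gene is on, which bears on 4 of the 7 genes. The median log2 difference of tested genes was 0.17 on chromosome 8, which holds Rbl2, and 0.17 on chromosome 17, which holds Cdkn1a. It was -0.22 on chromosome 6, which holds Cdkn1b, and -0.19 on chromosome 14, which holds Rb1. Chromosomes 4, 9 and 2, which hold Cdkn2c, Cdkn2d and Rbl1, had medians of 0.04, 0.05 and 0.04. On chromosome 8 22.7% of tested genes were higher and 3.52% lower, and on chromosome 14 5.17% were higher and 32.6% lower.

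With the median of each chromosome removed from each library, Cdkn2c (0.60, limma adjusted p = 0.0137) and Cdkn2d (0.41, adjusted p = 0.0177) still passed. Rbl2 then differed by 0.16 (adjusted p = 0.233) and Rb1 by -0.21 (adjusted p = 0.234), and neither passed. Cdkn1b changed sign, to 0.10 (adjusted p = 0.406), and so did Cdkn1a, to -0.10 (adjusted p = 0.228), both without a call before or after. The cause of the chromosome medians was not tested.

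**Figure D3:**
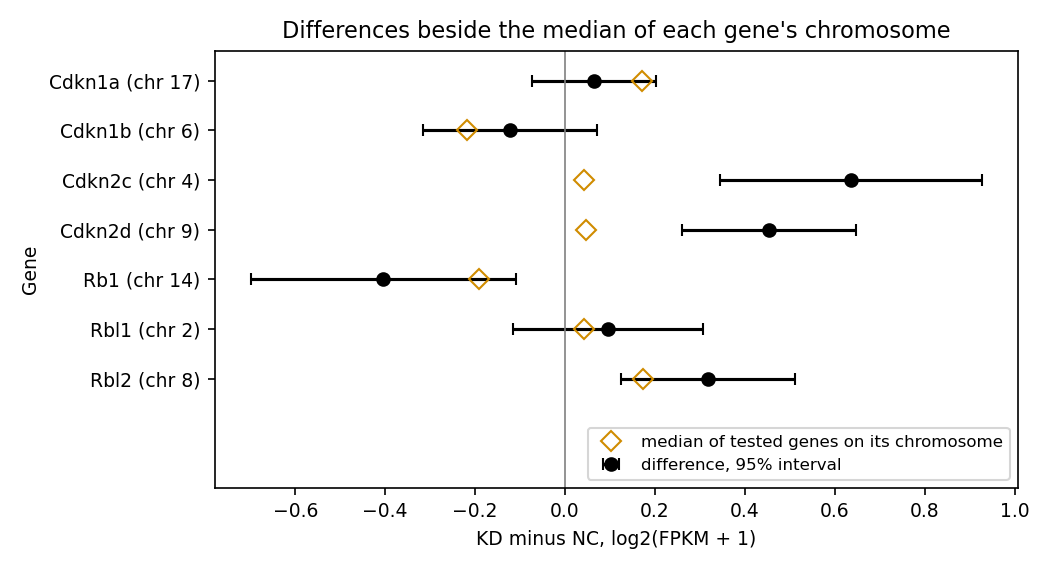
KD minus NC difference on the log2(FPKM + 1) scale for each detected gene (black points, bars for the 95% interval of the limma fit) beside the median difference of all tested genes on its chromosome (open diamonds). The intervals of Cdkn2c and Cdkn2d lie above 0 and above their chromosome medians, while those of Rbl2, Rb1, Cdkn1a and Cdkn1b contain the median of their chromosome.

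Levels of different genes can be set side by side in FPKM, which is per length, and the order of means differed between the groups only for Rb1 and Cdkn1a. In NC, Cdkn2c (36.3 FPKM) and Rbl1 (35.8 FPKM) led, and their ranges overlapped. Below them came Cdkn2d (22.0), Cdkn1b (18.2), Rb1 (11.8), Cdkn1a (10.1) and Rbl2 (4.74 FPKM), each above the next in 3 of 3 libraries. In KD, Cdkn2c and Rbl1 again led in that order, with Cdkn2c above Rbl1 in 3 of 3 libraries and no overlap. Rb1 stood below Cdkn1a in mean, at 8.74 against 10.6 FPKM, though the ranges overlapped and 2 of 3 libraries showed that order. By mean over the 6 libraries Cdkn2c was at the 90.7th percentile of 10298 tested protein-coding genes, Rbl1 at the 87.4th, Cdkn1a at the 51.5th and Rbl2 at the 30.4th.

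The make-up of each family followed from these levels. Summed INK4 RNA was 55.0 to 60.7 FPKM in NC and 74.6 to 97.5 FPKM in KD, while summed CIP/KIP RNA was 27.3 to 29.0 and 26.3 to 28.5 FPKM. INK4 genes made up 67.3 ± 1.28% of inhibitor FPKM for NC libraries and 76.1 ± 3.29% for KD libraries (SD, n = 3 each), all of it from Cdkn2c and Cdkn2d. Summed pocket protein RNA was 51.0 to 53.8 FPKM in NC and 47.0 to 60.3 FPKM in KD, so the KD range enclosed that of NC. Within it the share of Rb1 was 20.9% to 23.6% in NC and 15.6% to 17.1% in KD, that of Rbl1 67.3% to 70.3% and 71.9% to 72.7%, and that of Rbl2 8.69% to 9.63% and 10.9% to 12.0%. The Rb1 to Rbl2 ratio was 2.37 to 2.72 in NC and 1.32 to 1.57 in KD. These shares describe the values above and were not tested.

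**Figure D4:**
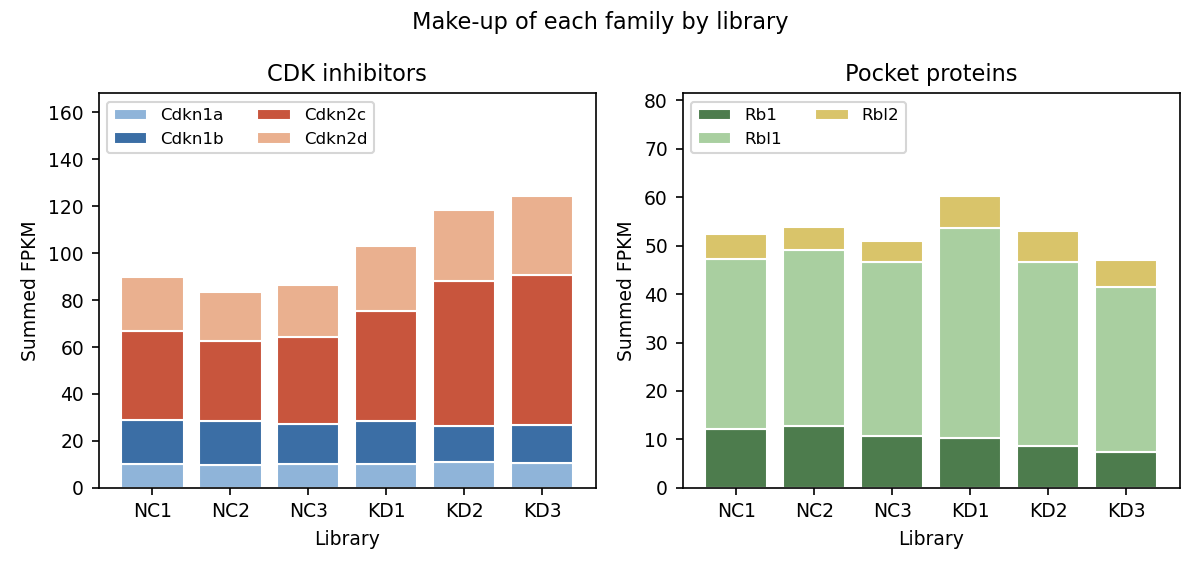
Stacked FPKM of the 4 detected CDK inhibitor genes (left) and the 3 pocket protein genes (right) in each library. The Cdkn2c and Cdkn2d segments are taller in the KD libraries, and the Rb1 segment is shorter, 7.32 to 10.3 FPKM against 10.7 to 12.7 in NC.

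KD1 departed from KD2 and KD3 in most of the detected members. Its value was nearer to NC than theirs for Cdkn2c, Cdkn2d, Cdkn1b, Rb1 and Cdkn1a, and farther for Rbl1 and Rbl2. Across genes the deviation of KD1 from the mean of all libraries ran against GC content (Spearman rho -0.41 over 12282 genes, which are not independent replicates), and those of KD2 (0.34) and KD3 (0.49) ran with it. Transcripts of Rb1, Rbl1 and Cdkn1b had 42.1%, 43.6% and 44.1% GC and those of Cdkn2d 57.3%, against a median of 50.2% over tested genes. With the GC and length trend removed, limma gave 0.67 for Cdkn2c (adjusted p = 0.0031), 0.36 for Cdkn2d (adjusted p = 0.00252), 0.38 for Rbl2 (adjusted p = 0.00376) and -0.32 for Rb1 (adjusted p = 0.011).

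**Figure D5:**
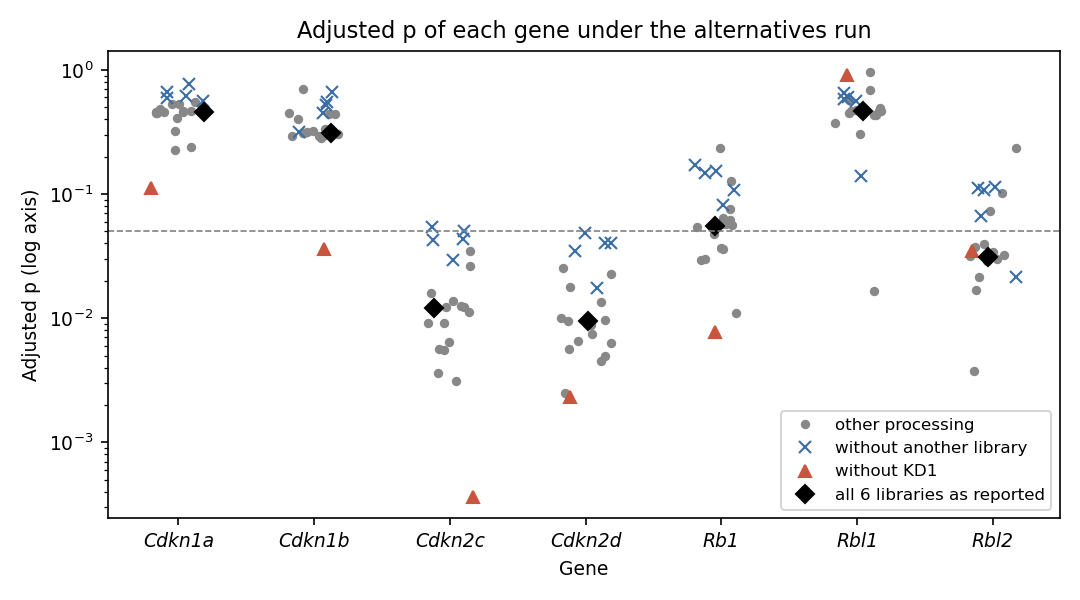
Adjusted p (log axis) of each detected gene with all 6 libraries (black diamonds), without KD1 (red triangles), without each other library (blue crosses) and under other processing (grey points), with a dashed line at 0.05. All points of Cdkn2d lie below the line, 2 points of Cdkn2c lie above it, and those of Rb1 and Rbl2 fall on both sides.

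Of the cyclins and kinases of the cell cycle, those that the inhibitors act on included, 15 were tested. Of these 1 rose and 2 fell, with a median difference of -0.07. The same background of 24.5% of tested genes with a call, and a median of 0.01, stands beside the main limma counts of this list and those that follow. Voom counts stand beside 27.3% of tested genes with a voom call. The share of all tested genes at an unadjusted p under 0.05 was not counted, and it is at least the 24.5% with a limma call. Counts under alternatives have other backgrounds. Over all tested genes 2571 were higher and 2658 lower without KD1, and 588 and 898 without NC2. The same counts were 627 and 914 without NC1, 650 and 972 without NC3, 591 and 989 without KD2, and 999 and 1458 without KD3. With the GC and length trend removed they were 2390 and 2166, and with chromosome medians subtracted 1187 and 1355. The E-type cyclin gene Ccne1 rose from 10.3 ± 0.59 to 12.99 ± 0.14 FPKM (log2 difference 0.30, limma adjusted p = 0.013). The D-type cyclin genes Ccnd1, from 147.9 ± 2.68 to 128.6 ± 5.20 FPKM (-0.20, adjusted p = 0.0371), and Ccnd2, from 25.5 ± 0.28 to 21.8 ± 0.21 FPKM (-0.22, adjusted p = 0.0195), fell (SD, n = 3 each). Cdk4 had 91.5 and 86.6 FPKM (adjusted p = 0.61) and Cdk6 21.7 and 20.4 FPKM (adjusted p = 0.375). Leaving out KD1 gave 2 higher and 5 lower, leaving out NC2, NC3 or KD2 gave 0 of either kind, and leaving out NC1 gave 1 higher and 0 lower. Leaving out KD3, or subtracting chromosome medians, gave 1 of each, and removing the GC and length trend gave 3 higher and 2 lower.

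E2F and DP genes, which include those of the pocket protein partners, had no call. Of 10 tested 0 rose and 0 fell by limma and by voom, 1 was higher at an unadjusted p under 0.05, and the median difference was 0.10. The 2 with the highest level were Tfdp1, at 79.3 and 88.1 FPKM (0.15, limma adjusted p = 0.0596), and the repressor E2F gene E2f4, at 39.1 and 41.9 FPKM (0.10, adjusted p = 0.204). Both are on chromosome 8, with the median given above. Without KD1 3 rose and 0 fell, and with the GC and length trend removed 2 rose.

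Of 17 genes for the MuvB complex, its partners and the corepressors of pocket proteins, 1 rose and 2 fell, with a median of -0.01. The histone deacetylase genes Hdac1, from 29.4 ± 1.08 to 22.6 ± 0.37 FPKM (-0.36, limma adjusted p = 0.00465), and Hdac2, from 37.3 ± 1.04 to 27.8 ± 2.31 FPKM (-0.42, adjusted p = 0.00787), fell (SD, n = 3 each). Arid4a, which encodes an RB-binding protein, rose from 5.40 to 6.52 FPKM (0.23, adjusted p = 0.0485). The MuvB genes Lin9, Lin37, Lin52 and Lin54 had no call. Leaving out KD1 gave 3 higher and 5 lower. Leaving out any one of the other 5 libraries, or subtracting chromosome medians, gave 0 higher and 2 lower, and removing the GC and length trend gave 4 higher and 3 lower.

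Of 26 E2F target genes of DNA synthesis 1 rose and 7 fell, and the median was -0.01. The helicase subunit genes Mcm3, from 69.4 to 55.3 FPKM (-0.33, limma adjusted p = 0.0288), and Mcm2, from 40.9 to 32.5 FPKM (-0.33, adjusted p = 0.0186), fell, as did the replication factor gene Cdc45 (-0.30, adjusted p = 0.0159) and the primase gene Prim1 (-0.29, adjusted p = 0.0267). Uhrf1, which maintains DNA methylation, rose from 83.5 to 103.8 FPKM (0.31, adjusted p = 0.0437). Rrm2 and Pcna, at 284 and 76.7 FPKM in NC and 277.9 and 84.8 FPKM in KD, had no call (adjusted p = 0.692 and 0.155). The count depended on single libraries, with 5 higher and 9 lower when KD1 was left out and 0 of either kind when NC1 was. It was 0 higher and 1 lower when NC2, NC3 or KD2 was left out, 0 and 5 for KD3, and 0 and 3 after subtraction of chromosome medians. With the GC and length trend removed it was 6 higher and 6 lower, so the lean to lower calls was not there.

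Of 16 genes for ubiquitin ligases and phosphatases acting on CIP/KIP and pocket proteins 0 rose and 3 fell by limma. Voom gave 0 higher and 3 lower, and at an unadjusted limma p under 0.05 there were 1 higher and 4 lower. Cul1, the scaffold of the SCF ligase that degrades p27, fell from 22.3 ± 0.76 to 15.3 ± 1.94 FPKM (-0.52, limma adjusted p = 0.00838), its RING subunit Rbx1 from 20.3 to 17.3 FPKM (-0.22, adjusted p = 0.041), and Uhmk1, a kinase of p27, from 20.55 to 15.4 FPKM (-0.40, adjusted p = 0.016). The p27 receptor subunits Skp2 and Cks1b, at 17.01 and 107.2 FPKM in NC, had no call (adjusted p = 0.548 and 0.747). Cul1 is on chromosome 6, and after subtraction of chromosome medians the list had 0 calls. With the GC and length trend removed it had 3 higher and 2 lower. Leaving out KD1 gave 1 higher and 5 lower, and leaving out NC1, NC2 or KD2 gave 1 lower, NC3 2 lower and KD3 3 lower.

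Of 16 tested transcriptional activators of inhibitor genes 1 rose and 3 fell by limma, and 3 were higher and 3 lower by voom. Foxo3 (limma adjusted p = 0.0503) and Foxo4 (adjusted p = 0.0507), FOXO factors, narrowly missed the threshold, and 3 were also higher with a pseudocount of 0.1, median-of-ratios scaling, equal totals or protein-coding genes only. Ets2, an ETS factor able to induce Cdkn2a, fell from 19.5 ± 0.24 to 10.8 ± 0.18 FPKM (SD, n = 3 each; -0.80, limma adjusted p = 0.000165). The histone demethylase gene Kdm6b fell from 8.73 to 6.39 FPKM (-0.40, adjusted p = 0.00861) and Klf6 from 27.0 to 20.6 FPKM (-0.38, adjusted p = 0.00416). Smad3, a signal carrier of TGF-beta, rose from 13.6 to 17.7 FPKM (0.36, adjusted p = 0.00505). The count was 4 higher and 4 lower when KD1 was left out and 1 and 3 when any other library was. Subtraction of chromosome medians gave 2 higher and 3 lower, and removal of the GC and length trend 2 and 4.

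Of 20 tested repressors, Polycomb genes included, 1 fell and 0 rose by limma, with 1 higher and 4 lower at an unadjusted p under 0.05. Voom gave 1 higher and 2 lower. The gene that fell by limma was Myc, a repressor of several inhibitor genes, from 75.1 ± 1.354 to 50.9 ± 1.59 FPKM (SD, n = 3 each; -0.55, limma adjusted p = 0.000784). Ezh2, at 28.9 and 27.2 FPKM (adjusted p = 0.349), and Bmi1, at 38.0 ± 1.26 and 28.6 ± 8.22 FPKM (adjusted p = 0.124), are Polycomb genes that repress Cdkn2a and had no call. Bmi1 was at 38.1 FPKM in KD1 and at 24.9 and 23.0 FPKM in KD2 and KD3, so KD1 alone of the KD libraries lay among the NC values. Leaving out KD1 gave 1 repressor higher and 4 lower, and leaving out KD3 or subtracting chromosome medians gave 2 lower. Removing the GC and length trend gave 0 higher and 4 lower.

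Among 17 tested genes of p53 control and p53 targets other than Cdkn1a, 0 rose and 3 fell by limma. Voom gave 0 higher and 3 lower, and at an unadjusted limma p under 0.05 there were 0 higher and 4 lower. Mdm2, which encodes the ligase of p53 and is itself a p53 target, fell from 16.2 to 12.9 FPKM (-0.31, limma adjusted p = 0.0367), the polymerase gene Polk from 11.4 to 9.12 FPKM (-0.30, adjusted p = 0.0406) and the kinase gene Plk2 from 59.3 to 50.3 FPKM (-0.23, adjusted p = 0.0206). Bax and Ccng1, at 47.8 and 31.9 FPKM in NC, had no call (adjusted p = 0.807 and 0.85). Leaving out KD1 gave 1 higher and 5 lower and leaving out KD3 gave 1 lower. There were 0 lower when NC1, NC2, NC3 or KD2 was left out or chromosome medians were subtracted, which also gave 1 higher, and 1 higher and 6 lower with the GC and length trend removed.

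The protein-coding genes whose values over the 6 libraries were most like those of Cdkn2c were Tbkbp1, Ulk3, Plcg1, Myl12b and Rtel1, with Pearson r of 0.998, 0.998, 0.998, 0.997 and 0.996 on the log2(FPKM + 1) scale. Likeness to Cdkn2c, whose KD values all exceed its NC values, fixes that these genes are higher in KD, for example Ulk3, at 5.81 and 9.54 FPKM, and Tbkbp1, at 8.98 and 13.2 FPKM. Of 10297 genes compared, 41 had r above 0.99.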

How the data were processed

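Total RNA was, per the labels' protocols, sequenced in pairs on an Illumina instrument and HISAT2 (version 2.0.5) was the aligner, with mm10 as the build per the submitters' processing notes. The read counter, its strand setting and its annotation: not given in the sources used here. For 54532 genes the authors deposited FPKM, with positions and gene length in bases. Of 54495 identifiers shared with GENCODE M21, 98.3% had the same coordinates, all 10 members included. FPKM times length gave whole reads for 100% of values within 0.01 read, which recovered a depth of 15907164 to 18312888 reads per library. Whether a read here is a single read or a pair is not stated. Counting error is all that the read intervals and 3-read limits cover.

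Titles gave the groups. The test was limma (3.58.1, R 4.3.3) with an intensity trend, run on log2(FPKM + 1) for the 12299 genes averaging 1 FPKM or more, and a call means a Benjamini-Hochberg adjusted p under 0.05. Differences on that scale understate those of low genes. The text names the 10 members and Calu, up to 5 called genes per pathway list or else the 2 with the highest mean, the nearest neighbours of Cdkn2a and Cdkn2b, genes overlapping a member, markers, and the 5 genes most like the member with the largest difference. Other genes without a call were named after their values were seen. Members, lists, tests and alternatives were chosen with earlier results of these data known. Alternatives were pseudocounts of 0.1 and 5, other filters, scalings, moderation and weights, a replicate block, voom on recovered reads, chromosome medians removed, protein-coding genes only and each library left out. A GC and length trend was removed as an alternative chosen after seeing the data. The script was tested on simulated data. Tables and plots were made with pandas 2.3.3 and matplotlib 3.10.9 under Python 3.11.15.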

Additional observations from a re-analysis of the deposited data

How the results depend on the processing

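Cdkn2d kept its direction and its call in all 21 alternatives and Cdkn2c in 19, with the exceptions given in the report. Cdkn1a (-0.10) and Cdkn1b (0.10) changed sign with chromosome medians removed, neither with a call. The number of members higher was 2 to 4 over settings that kept all libraries and 1 to 3 with a library left out. The number lower was 1 with a filter of 5 FPKM, array weights, the replicate block, voom, protein-coding genes only or the GC and length trend removed, in each case Rb1, and 0 to 2 with a library left out. Over all genes, leaving out a library gave 588 to 2571 higher and 898 to 2658 lower, against 1344 and 1672, the highest counts without KD1, and removing the GC and length trend gave 2390 higher. The cause was not tested. With the replicate block 1050 genes were higher and 1383 lower, and 3 members were higher and 1 lower (Rb1, adjusted p = 0.037). The labels do not say that a number pairs libraries, so the numbers were not taken as pairs. Deviations of NC1 and KD1, NC2 and KD2, and NC3 and KD3 from their group means correlated at 0.079, -0.043 and 0.154. For NC2 and KD1 the correlation was 0.082, near that of NC1 and KD1. Deviations within a group sum to 0, so these correlations depend on each other and cannot decide whether libraries were paired. Of the counts for the pathway lists under alternatives, 234 stayed within 1.5 times of the reported count and 102 did not. With 3 libraries a group, the 95% intervals above give the differences compatible with the values of each gene. They are not adjusted for the number of genes, and that of Rb1 excludes 0 without a call.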

Other observations

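The deposited descriptions of 13 genes name a member, and of these only Rbbp4 and Rbbp7 were also in a pathway list. Of the 13, all tested, 0 rose and 0 fell in KD by limma. The one nearest the threshold was Rbbp9, a serine hydrolase gene first described as an RB-binding protein, with means of 10.998 ± 0.50 and 13.8 ± 1.73 FPKM for NC and KD (SD, n = 3 each; log2 difference 0.30, limma adjusted p = 0.0553). Cdkn3, which encodes a phosphatase of CDKs and is on chromosome 14 with Rb1, had 9.42 and 8.89 FPKM (adjusted p = 0.474). Lockd, the long noncoding RNA gene downstream of Cdkn1b, had 3.47 ± 0.12 and 3.23 ± 0.13 FPKM (adjusted p = 0.448). Cdkn2aip, named for binding the p19ARF product of Cdkn2a, and Cdkn2aipnl, named for its likeness to part of Cdkn2aip, were at 5.74 and 40.8 FPKM in NC and 6.22 and 39.9 FPKM in KD. Foxo1, a FOXO factor able to induce Cdkn1b and below the mean of 1 FPKM needed for testing, had 479 reads in NC and 157 in KD, or 1.16 ± 0.23 and 0.348 ± 0.05 FPKM, with all KD values below all NC values. These genes were named after their values were seen.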
